A study of Mus musculus with 6 samples.

Results

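The 10 genes described here encode AP-1 subunits and other immediate early factors: Fos, Fosb, Fosl2, Jun, Junb, Jund, Egr1, Atf3, Ier2 and Myc. They were taken by symbol from the deposited expression table, which lists 14147 genes, and all 10 were present. RNA sequencing measured their transcripts in cultures of primary astrocytes from wild-type mice. One group of 3 libraries had received human IgG against the astrocyte water channel aquaporin-4 (AQP4-IgG), the serum marker of neuromyelitis optica. The other 3 libraries had received human control IgG (Control-IgG), and both groups were taken at 24 h. The series title mentions conditioned medium, and whether the IgG was given directly or in such medium is not given in the sources used here. Mouse strain and age, the origin of the IgG and whether a replicate stands for its own culture are likewise not given, so the spread behind each p-value may be technical.

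AP-1 is a family of dimeric transcription factors in which a Jun protein pairs with a Fos, Jun or ATF protein through a leucine zipper. Many of its genes are called immediate early because growth factors, cytokines and stress switch them on within minutes through MAP kinases. This needs no new protein, and most of these transcripts decay quickly again. In astrocytes AP-1 is known as an effector of injury and cytokine signals. Their first response to a stimulus usually peaks within hours.

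The genes were short and simple in structure. In GRCm38, 8 of the 10 spanned at most 7356 bases, the length of Fosb. The median span of the 11306 expressed coding genes was 24751 bases. Jun, Junb, Jund and Ier2 consisted of a single exon in their longest coding transcript, as did 2.54% of the expressed coding genes. Junb (84974484 to 84978718, minus strand) and Ier2 (84661331 to 84662852, minus strand) lay on chromosome 8, which also carried Jund (70698949 to 70700616, plus strand). Fos lay on chromosome 12 (85473890 to 85477273, plus strand) and Jun on chromosome 4 (95049034 to 95052222, minus strand).

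The bases upstream of 3 of these genes are shown because Fos and Junb were among the more variable members across libraries and Jun among the steadier ones. RefSeq promoter windows matched 7 of the 10 genes, and those of Fosl2 and Jund lie 671 and 1210 bases from the deposited gene start. Each sequence is the 250 bases before the RefSeq start in GRCm38.p6, at chr12:85473640-85473889 on the plus strand for Fos, chr8:84978749-84978998 on the minus strand for Junb and chr4:95052223-95052472 on the minus strand for Jun. Capitals mark TGACG, the core of the CREB/ATF site, and TATAAA, each searched on both strands.
Fos: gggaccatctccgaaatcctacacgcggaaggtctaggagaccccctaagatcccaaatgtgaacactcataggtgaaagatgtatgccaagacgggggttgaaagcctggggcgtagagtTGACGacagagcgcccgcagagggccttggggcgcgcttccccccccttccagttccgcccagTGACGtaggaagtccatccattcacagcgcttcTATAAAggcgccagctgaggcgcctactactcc
Junb: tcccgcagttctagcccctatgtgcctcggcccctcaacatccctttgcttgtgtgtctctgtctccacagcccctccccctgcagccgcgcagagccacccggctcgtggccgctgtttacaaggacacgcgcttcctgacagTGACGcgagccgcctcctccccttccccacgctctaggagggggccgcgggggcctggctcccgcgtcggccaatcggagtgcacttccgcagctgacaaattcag
Jun: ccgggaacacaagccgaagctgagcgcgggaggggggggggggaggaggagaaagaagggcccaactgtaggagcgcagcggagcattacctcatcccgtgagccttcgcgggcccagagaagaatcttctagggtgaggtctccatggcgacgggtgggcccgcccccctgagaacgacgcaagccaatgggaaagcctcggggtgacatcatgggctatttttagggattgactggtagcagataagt
Counted back from the RefSeq start, TGACG occurred at -129 and -66 before Fos and at -106 before Junb. It was also found in the window of Fosb and in that of Atf3, which lies 34706 bases from the deposited gene start, inside the gene, and in 17.8% of all 32851 promoter windows of this length. TATAAA stood at -33 before Fos and occurs in 12.4% of the windows. The AP-1 site TGACTCA (4.46% of windows), the full site TGACGTCA, which contains TGACG (1.55%), and the CArG box of serum response factor (1.47%) had 0 matches in the 7 windows. Only fixed patterns within these 250 bases were searched. Sites farther upstream and variants, such as the TGACATCA in the Jun window, were therefore not counted. Egr1, Ier2 and Myc had no window, so the search says nothing about them. A match is a description of letters and not evidence of binding.

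Another sequence feature of these transcripts lies in their 3′ ends. The pentamer ATTTA, the core of AU-rich elements that mark short-lived mRNAs, occurred in the 3′ untranslated region of 9 of the 10 genes, the exception being Ier2. Its density exceeded the median of 1.37 per kb over 10612 expressed genes in 8 of them. The highest density, 4.91 per kb, was that of Fos, and 93.2% of the expressed genes had a lower one. Myc had 4.52 per kb and Junb 4.12 per kb. The stretches of 30 bases that hold the most ATTTA in Fos (transcript positions 1935 to 1964) and Fosl2 (5559 to 5588), taken from GENCODE M21, are given with the pentamer in capitals.
Fos: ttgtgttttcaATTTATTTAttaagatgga
Fosl2: aattgacATTTAttttattATTTAttttaa

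Values are FPKM as deposited, that is, reads scaled for library size and for the length of all annotated exons of a gene. That length was 9680 bases for Fosl2, 6243 for Fosb and 1668 for Jund. It can exceed the transcript in use, so levels compared between genes depend on the annotation. The worth of 1 read, recovered from the values, put the library totals between about 17900000 and 20600000 reads, the lowest being Control-IgG 2. Of the 10 astrocyte markers checked, all 10 were listed and 0 were at 0 in any library, with a summed level of 463 to 524 FPKM with AQP4-IgG and 418 to 479 FPKM with Control-IgG. Listed markers of other cell types were present too. The 13 microglia and macrophage markers summed to 1057 to 1205 and 1075 to 1374 FPKM. The 7 of 10 fibroblast and mural markers present summed to 2180 to 2538 and 2851 to 3126 FPKM, without overlap between the groups. Most of this last sum was 1 gene, Acta2, with means of 2134 and 2782 FPKM with AQP4-IgG and Control-IgG. Dcn, Lum and Rgs5 of that list were absent from the deposited values. Past the threshold, 3 of 10 astrocyte markers rose with AQP4-IgG: Aqp4 itself and the glutamate transporter genes Slc1a3 and Slc1a2 (1.26-, 1.26- and 1.33-fold). Of 12 tested microglia and macrophage markers limma called 1, Cx3cr1, which fell 1.47-fold. In 5 of the 12 all AQP4-IgG libraries were below all controls and in 1 above, and limma-voom called 1 higher and 1 lower. Of 7 tested fibroblast and mural markers limma called 1, the smooth muscle actin gene Acta2, which fell 1.30-fold. In 4 of the 7 all AQP4-IgG libraries were below all controls and in 0 above. Limma-voom, which fitted 6 of them, called 2 lower, Cnn1 and Myh11, and 0 higher. Of the oligodendrocyte lineage, neuronal and endothelial lists, 4 of 8, 2 of 7 and 3 of 6 markers were listed, with sums of at most 56.2, 44.3 and 5.48 FPKM in any library. In such bulk samples a smaller number of cells of a type and less RNA per cell cannot be told apart, and the cells in which the AP-1 genes were transcribed were not tested.

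All 10 genes were expressed in both groups, over a wide range of levels. Jun had the highest FPKM, with a mean of 40.5 over the 6 libraries, followed by Junb (35.2), Jund (25.5), Fosl2 (21.3), Egr1 (19.1), Fos (17.8), Myc (13.3) and Ier2 (12.1). Atf3 averaged 5.41 FPKM and Fosb 0.544 FPKM. Each gene from Jun down to Myc overlapped in its range over the 6 libraries with the next gene in this order. Compared within each library, Junb was above Jund, Jund above Fosl2 and Fos above Myc in every library. The other neighbouring pairs from Jun to Ier2 did not keep their order in every library. The gaps between Ier2 and Atf3 and between Atf3 and Fosb were free of overlap. The recovered reads behind these levels ranged from 57 to 82 per library for Fosb and from 3652 to 4327 for Fosl2.

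**Figure D1:**
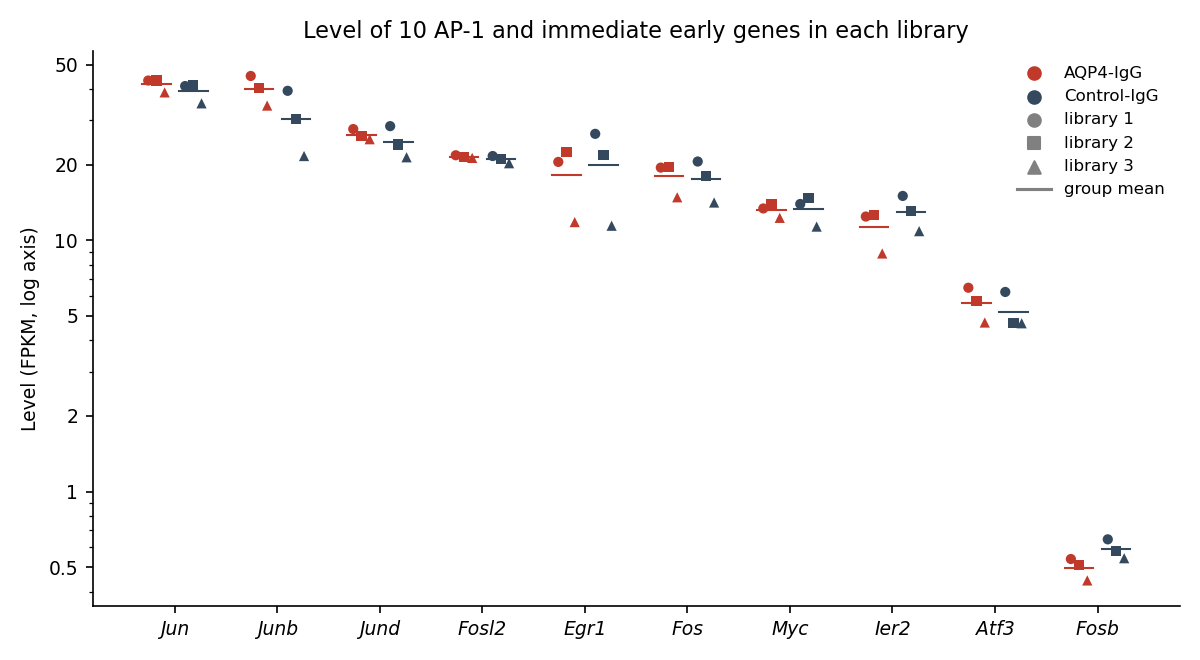
Level of each of the 10 genes in FPKM (logarithmic axis) in the 3 AQP4-IgG and 3 Control-IgG libraries. Points are single libraries, their shape gives the library number and the short lines are group means. The groups overlap for 9 genes, and library 3 (triangle) is the lowest of its group for all 10 genes in both groups. For Atf3 with Control-IgG the margin is very small (4.674 FPKM, against 4.688 FPKM in library 2).

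None of the genes differed between the IgG groups past the threshold. In limma on log2(FPKM + 1), over the 12334 genes whose mean reached 1 FPKM, 0 of the 9 tested members had an adjusted p under 0.05, and 0 had an unadjusted p under 0.05. Limma-voom on the recovered reads also called 0 of 9. For comparison, 2.09% of all genes tested were called (1.46% higher, 0.632% lower), and 13.3% had an unadjusted p under 0.05. The median log2 fold change of the tested members was 0.04, with 6 above and 3 below 0, beside 0.00 over all tested genes. In the authors' deposited table all 10 were also listed as not regulated, and its lowest adjusted p among them was 0.373, for Junb. The authors' unadjusted p for Junb was 0.0229, under 0.05 unlike in limma here. Fosb was left out of the limma fit by its low level.

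A p above the threshold does not show equal levels, so the 95% intervals of the fold changes are given with each gene. For 7 of the 9 tested members the whole interval lay within 1.5-fold in either direction. The exceptions were Junb and Egr1, whose intervals reached 2.02-fold higher and 0.452-fold (lower), respectively. These folds are on the log2(FPKM + 1) scale, which slightly understates the change of genes at low levels.

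**Figure D2:**
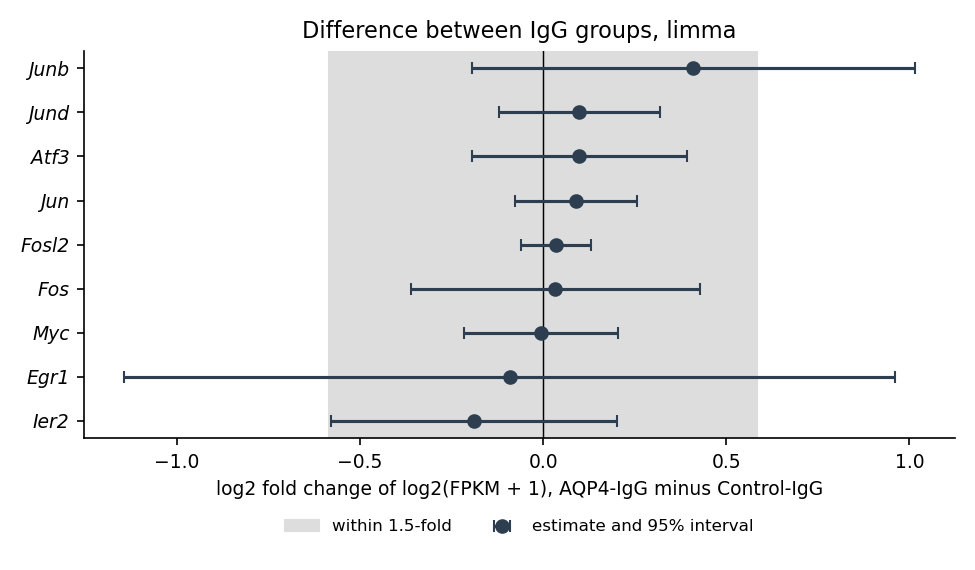
Log2 fold change of log2(FPKM + 1), AQP4-IgG minus Control-IgG, for the 9 tested members (points) with 95% intervals from limma (bars). The shaded band spans 1.5-fold in either direction, and only the intervals of Junb and Egr1 extend beyond it.

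Among the Jun proteins, Jun, which also dimerizes with itself, stood at 43.2, 43.3 and 38.8 FPKM in AQP4-IgG libraries 1 to 3 and at 41.1, 41.5 and 35.1 FPKM in Control-IgG 1 to 3. The groups overlapped, and its log2 fold change was 0.09 (SE 0.073, 95% interval 0.948- to 1.20-fold, limma adjusted p = 0.705). An antisense gene, Junos, shares 7.28% of the exon bases of Jun, and whether reads were counted by strand is not given in the sources used here.

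Junb, a partner that often restrains Jun and that cytokines induce, had the largest difference among the members. It reached 45.1, 40.3 and 34.4 FPKM with AQP4-IgG and 39.3, 30.4 and 21.6 FPKM with Control-IgG. AQP4-IgG 1 and 2 lay above all control libraries, but AQP4-IgG 3 lay below Control-IgG 1. The means were 39.9 ± 5.36 and 30.5 ± 8.85 FPKM (SD, n = 3), a ratio of 1.31, and the log2 fold change was 0.41 (SE 0.237, 95% interval 0.873- to 2.02-fold, limma adjusted p = 0.585). Control-IgG 3 and 1 set much of this estimate, which was 0.19 without the former (adjusted p = 0.756) and 0.61 without the latter (adjusted p = 0.24). Prdx2, a peroxiredoxin gene on the opposite strand, shares 7.52% of the exon bases of Junb, and its own levels were 96.8 ± 2.93 and 92.4 ± 7.68 FPKM.

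Jund, the subunit usually present in resting cells, measured 27.7, 25.9 and 25.2 FPKM with AQP4-IgG and 28.5, 24.1 and 21.4 FPKM with Control-IgG. The highest library was a control, and the groups overlapped (log2 fold change 0.10, SE 0.095, 95% interval 0.919- to 1.248-fold, limma adjusted p = 0.765). Of its stretches of 50 bases, 48.3% also occur in the antisense gene Gm11175, so reads of this pair cannot be told apart without strand and its level is uncertain to that extent.

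Fos proteins bind DNA only with a partner. Fos itself was at 19.5, 19.6 and 14.8 FPKM with AQP4-IgG and at 20.6, 18.03 and 14.1 FPKM with Control-IgG. The third library of each group was the low one, and the group means of 17.95 ± 2.7 and 17.6 ± 3.25 FPKM (SD, n = 3) were close (log2 fold change 0.03, SE 0.162, 95% interval 0.778- to 1.35-fold, limma adjusted p = 0.966). Leaving out 1 library at a time moved this estimate between -0.11 and 0.16.

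Fosl2, a subunit without the strong activation domain of Fos, was the steadiest member. Its levels were 21.8, 21.5 and 21.3 FPKM with AQP4-IgG and 21.6, 21.05 and 20.3 FPKM with Control-IgG, with a coefficient of variation of 2.6% over the 6 libraries. Its interval of 0.960- to 1.09-fold was the narrowest of the 9 (log2 fold change 0.04, SE 0.042, limma adjusted p = 0.821).

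Fosb was the only member whose groups did not overlap. It was at 0.539, 0.510 and 0.443 FPKM with AQP4-IgG and at 0.646, 0.581 and 0.543 FPKM with Control-IgG. The gap between the groups was 0.00401 FPKM, less than the 0.00777 to 0.00894 FPKM that a single read is worth in this gene. Among all tested genes 19.0% had groups that did not overlap, 8.58% with AQP4-IgG lower. Without the filter on low values its limma adjusted p was 0.772.

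The summed levels of the Jun and Fos genes can be set side by side as a description. Jun, Junb and Jund together amounted to 2.78, 2.63 and 2.69 times the summed FPKM of Fos, Fosb and Fosl2 in AQP4-IgG 1 to 3, and to 2.54, 2.42 and 2.24 times in Control-IgG 1 to 3. The groups did not overlap in this ratio, which was formed after the genes were chosen and was not tested. It includes Jund, whose level is uncertain as described, and it depends on the exon lengths by which each gene was scaled. Among single genes, 19.0% had groups that did not overlap. Junb made up 38.9%, 36.8% and 34.9% of the Jun sum with AQP4-IgG and 36.1%, 31.7% and 27.7% with Control-IgG, which overlapped.

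Egr1, a zinc finger factor induced through serum response factor and encoded on chromosome 18 (34859823 to 34864984, plus strand), was the most variable member. It reached 20.5, 22.4 and 11.8 FPKM with AQP4-IgG and 26.5, 21.8 and 11.4 FPKM with Control-IgG. In each group the third library was the lowest and the other libraries were well above it. The log2 fold change was -0.09 (SE 0.404, 95% interval 0.452- to 1.95-fold, limma adjusted p = 0.965), and its sign depended on single libraries, with values from -0.43 to 0.18 when 1 library was left out.

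Ier2, a small nuclear protein of the early response, was at 12.4, 12.6 and 8.86 FPKM with AQP4-IgG and at 15.0, 13.1 and 10.9 FPKM with Control-IgG. AQP4-IgG 3 was the lowest library and Control-IgG 1 the highest, and the groups overlapped (log2 fold change -0.19, SE 0.161, 95% interval 0.668- to 1.15-fold, limma adjusted p = 0.734). Its estimate kept this sign with any library left out (-0.30 to -0.04).

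Atf3, a stress-induced partner of the Jun proteins, had 6.47, 5.71 and 4.71 FPKM with AQP4-IgG and 6.23, 4.69 and 4.67 FPKM with Control-IgG. These overlapped (log2 fold change 0.10, SE 0.126, 95% interval 0.874- to 1.31-fold, limma adjusted p = 0.838). Myc, the growth-promoting factor that dimerizes with Max, had 13.4, 13.9 and 12.3 FPKM with AQP4-IgG and 13.9, 14.7 and 11.3 FPKM with Control-IgG. Its estimate was the closest to 0 (log2 fold change -0.01, SE 0.091, 95% interval 0.861- to 1.15-fold, limma adjusted p = 0.989).

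The members shared a pattern across libraries that ran across both IgG groups. In all 10 genes library 3 was the lowest of its group with AQP4-IgG and also with Control-IgG, as was the case for 19.0% of the genes tested. For Atf3 with Control-IgG the margin was very small, at 4.674 FPKM in library 3 and 4.688 FPKM in library 2. The share was also above that in several related lists described below: 63.2% of other immediate early genes, 56.0% of AP-1 targets and 54.5% of bZIP partners. It was 15.4% of upstream kinases and 11.1% of serum response and ternary complex factors. The pattern of the members was noticed in these values and was not tested. Egr1 in library 3 was 0.55 times the mean of libraries 1 and 2 with AQP4-IgG and 0.473 times with Control-IgG, and 0.365% of the tested genes had a joint ratio as low. For Junb the ratios were 0.805 and 0.621, for Fos 0.76 and 0.732, and for Ier2 0.708 and 0.775. Over all tested genes the median ratio was 0.987 in both groups. Fosl2, at 0.983 and 0.949, was nearest to that median.

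**Figure D3:**
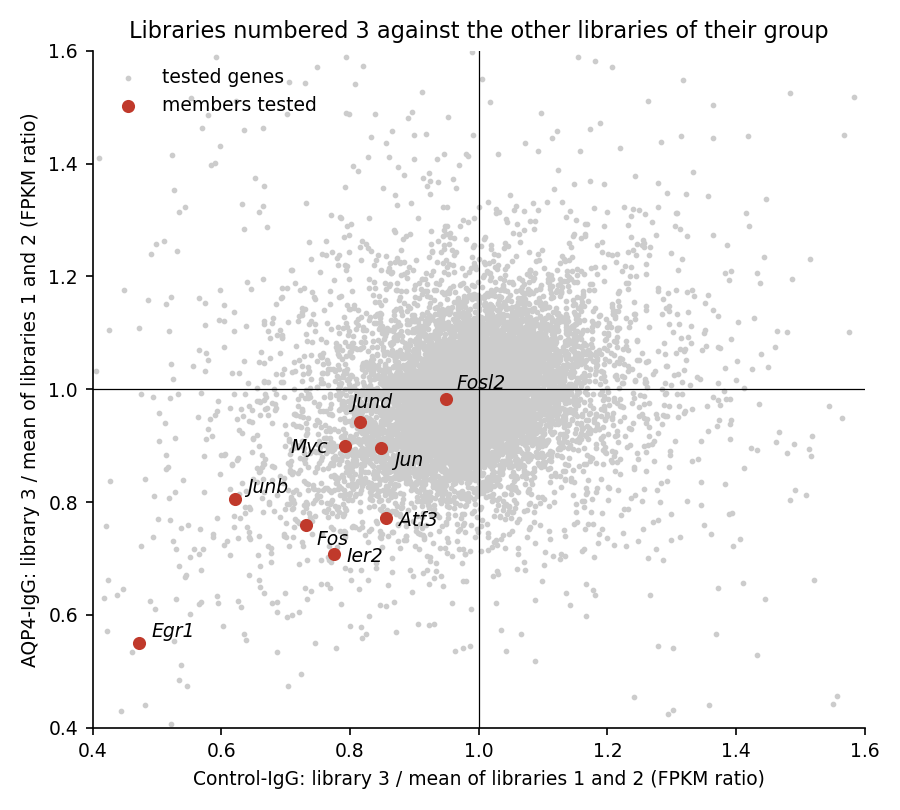
FPKM in library 3 divided by the mean of libraries 1 and 2, for Control-IgG (horizontal) and AQP4-IgG (vertical), for the tested genes (grey, 190 of them outside the axes) and the 9 tested members (red, labelled). All 9 members lie below 1 on both axes, Egr1 farthest at 0.473 and 0.55 and Fosl2 nearest at 0.949 and 0.983.

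The spread between libraries was thus wider for most members than for the typical gene. The median within-group SD of log2(FPKM + 1) was 0.20 for the 9 tested members and 0.08 for all tested genes. For Egr1 99.8% of the genes within 2-fold of its mean level varied less, for Junb 99.1% and for Fos 98.4%, but for Fosl2 11.96%. The labels do not say that a shared library number stands for a shared culture or day. Library 3 held about 20600000 reads with AQP4-IgG and 20100000 with Control-IgG, and the part of depth in the pattern was not tested. In library 3 the summed astrocyte markers were 0.902 and 1.0 times those of libraries 1 and 2 with AQP4-IgG and Control-IgG, the microglia and macrophage markers 0.995 and 0.91 times, and the fibroblast and mural markers 1.13 and 1.05 times. The part of these in the pattern was not tested. With the libraries numbered 3 left out of both groups, a choice made after the data were seen, 0 members were called and the estimate of Junb was 0.29 (adjusted p = 0.55).

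Many pairs of members were high and low in the same libraries. Pearson's r of log2(FPKM + 1) was above 0 for all 45 pairs of members, with a median of 0.71, and above 0.8 for 19 pairs (42.2%). Over all pairs of the 12334 tested genes the median was 0.01, and 3.83% of pairs were above 0.8. The highest values were 0.99 between Fosl2 and Junb and 0.97 between Fos and Egr1, and the lowest was 0.03 between Fosb and Junb. Fosb had low values with Fosl2, Jun and Jund too (0.10, 0.16 and 0.25), but 0.90 with Ier2 and 0.68 with Egr1. Ier2 had 0.91 with Egr1, but 0.35 with Junb and 0.39 with Fosl2. These are descriptions over 6 libraries that share their depth and composition between genes. Among 5001 other genes averaging at least 10 FPKM, the patterns most like that of Fos were those of Sf1, Rnf187 and Cops7a (r = 0.99, 0.98 and 0.97). Those most like that of Jund were Cdk2ap2, Fam107b and Eef1a1, each with r = 0.99.

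Lists of related genes place the members in their pathway. Of 38 tested other immediate early genes, 0 rose, 4 fell and 34 missed the threshold in limma. Over all tested genes limma called 1.46% higher and 0.632% lower. Limma-voom, which fitted 35 of the list and not Klf9, called 1 higher and 8 lower, beside 505 of all 11535 genes it fitted. In 15 of the 38 every AQP4-IgG library lay below every control library, beside 8.58% of all tested genes, and the opposite held for 3, beside 10.4%. The median log2 fold change was -0.06. Sgk1, a serum- and glucocorticoid-induced kinase, fell from 69.4 ± 3.5 to 49.7 ± 2.33 FPKM (limma adjusted p = 0.00435), a call kept in each of the 6 fits with 1 library left out. Errfi1, a feedback inhibitor of EGF receptor signalling, fell 1.30-fold to 13.5 ± 0.327 FPKM (adjusted p = 0.00984), and Klf9, a Krüppel-like factor that glucocorticoids also induce, fell 1.31-fold to 19.3 ± 1.31 FPKM (adjusted p = 0.0351). The fourth, named after its values were seen, was the nuclear protein gene Csrnp1, which fell 1.23-fold (adjusted p = 0.0358). With 1 library left out, the Errfi1 call was kept in 4 of the 6 fits (adjusted p up to 0.0562), that of Klf9 only without Control-IgG 1 (up to 0.139) and that of Csrnp1 only without Control-IgG 3 (up to 0.153). The number of genes of the list that fell was 2, 1 and 2 without AQP4-IgG 1, 2 and 3 and 1 without Control-IgG 2. Without the libraries numbered 3 it was also 1. The fall of Cx3cr1 and Acta2 given above, the only markers of their lists that limma called, ran in the same direction. Its part in these calls was not tested. In this list 63.2% of the tested genes were lowest in library 3 of both groups.

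Other early genes had groups that did not overlap but missed the threshold. Ier3, an apoptosis regulator looked up after its values were seen, had 51.9, 46.8 and 42.0 FPKM with AQP4-IgG and 35.6, 25.7 and 21.8 FPKM with Control-IgG. Its AQP4-IgG libraries were the higher ones (log2 fold change 0.76, SE 0.19, limma adjusted p = 0.16). The nuclear receptor gene Nr4a1, also looked up afterwards, lay lower with AQP4-IgG in all libraries at 3.5, 3.67 and 2.77 FPKM against 5.71, 4.71 and 3.72 FPKM (log2 fold change -0.40, SE 0.137, limma adjusted p = 0.248).

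Of 22 other AP-1 and bZIP partners, 0 rose, 1 fell and 21 did not pass in limma, which called 0.632% of all tested genes lower. Limma-voom called 1 higher (Cebpd) and 1 lower (Atf5) of the 21 it fitted, beside 505 of all 11535 genes. Cebpd, a C/EBP factor named after its values were seen, had 76.8 ± 4.9 and 61.03 ± 7.27 FPKM with AQP4-IgG and Control-IgG (limma adjusted p = 0.117). Atf5, a stress-responsive bZIP factor, fell from 72.9 ± 1.5 to 60.9 ± 2.85 FPKM (limma adjusted p = 0.0247), but with 1 library left out it passed again only without Control-IgG 1 (adjusted p up to 0.108 in the other 5 fits). The Fos relative Fosl1, looked up afterwards, had 11.1 ± 0.856 and 9.8 ± 1.81 FPKM with AQP4-IgG and Control-IgG (adjusted p = 0.627).

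Limma called 0 genes in the upstream parts of the pathway. Among 26 kinases upstream of AP-1, 1 had an unadjusted p under 0.05, and limma-voom, which fitted 20 of them, called 0. The smallest p was that of the MAP3 kinase Map3k4, at 9.59 ± 0.151 and 8.37 ± 0.466 FPKM with AQP4-IgG and Control-IgG (adjusted p = 0.16). Of 9 MAP kinase phosphatases 0 were called by limma and 3 had an unadjusted p under 0.05, beside 13.3% of all tested genes. Limma-voom, which called 505 of all 11535 genes it fitted, called 1 of 8 phosphatases, Dusp6, as lower. This ERK phosphatase gene had 55.8 ± 0.696 and 63.4 ± 3.08 FPKM (limma adjusted p = 0.0897). Of 9 serum response and ternary complex factors and EGR corepressors limma called 0, limma-voom called 0 of the 8 it fitted, and 2 had an unadjusted p under 0.05. The corepressor Nab1 had the smallest p there, with 13.1 ± 0.637 and 11.8 ± 0.339 FPKM (limma adjusted p = 0.299).

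Around Myc, limma called 0 of 10 tested partners of the MYC network, with 1 at an unadjusted p under 0.05, and limma-voom called 0 of the 9 it fitted. The gene with the smallest p was Mycl, a Myc paralog, at 1.32 ± 0.0455 and 1.06 ± 0.0449 FPKM (limma adjusted p = 0.345). Of 22 MYC targets 1 rose, 0 fell and 21 missed the threshold in limma, which called 1.46% of all tested genes higher. The transferrin receptor gene Tfrc rose from 6.11 ± 0.205 to 7.56 ± 0.36 FPKM (limma adjusted p = 0.0487), and the call was lost in all 6 fits that left out 1 library (adjusted p of 0.0633 to 0.204).

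Genes known as AP-1 targets moved unevenly. Of 25 tested, 2 rose, 0 fell and 23 did not pass, with a median log2 fold change of 0.02, and limma-voom called 4 higher and 2 lower of the 24 it fitted. Over all tested genes limma called 1.46% higher, and limma-voom called 505 of the 11535 genes it fitted, in either direction. Groups did not overlap in 5 genes with AQP4-IgG higher and in 5 with it lower, beside 10.4% and 8.58% of all tested genes. The stromelysin gene Mmp3, a matrix metalloproteinase, was at 8.66, 8.71 and 6.87 FPKM with AQP4-IgG and at 2.29, 2.17 and 1.74 FPKM with Control-IgG. It rose 3.91-fold on the scale of FPKM means (log2 fold change 1.56, SE 0.103, limma adjusted p = 0.000796) and kept the call in each of the 6 fits with 1 library left out. Its inhibitor Timp1 rose from 86.4 ± 4.92 to 111 ± 7.69 FPKM (adjusted p = 0.0243). The Timp1 call was lost without AQP4-IgG 1 or 2 or Control-IgG 2 or 3 (adjusted p of 0.075 to 0.0948). The chemokine gene Ccl2, looked up after its values were seen, was at 66.5, 55.7 and 49.9 FPKM with AQP4-IgG and at 27.1, 18.6 and 12.1 FPKM with Control-IgG. Every AQP4-IgG library was above every control library, but the estimate missed the threshold (log2 fold change 1.58, SE 0.311, limma adjusted p = 0.107). Mmp3 and Timp1 are induced by many other factors too, and the part of AP-1 in their change was not tested.

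**Figure D4:**
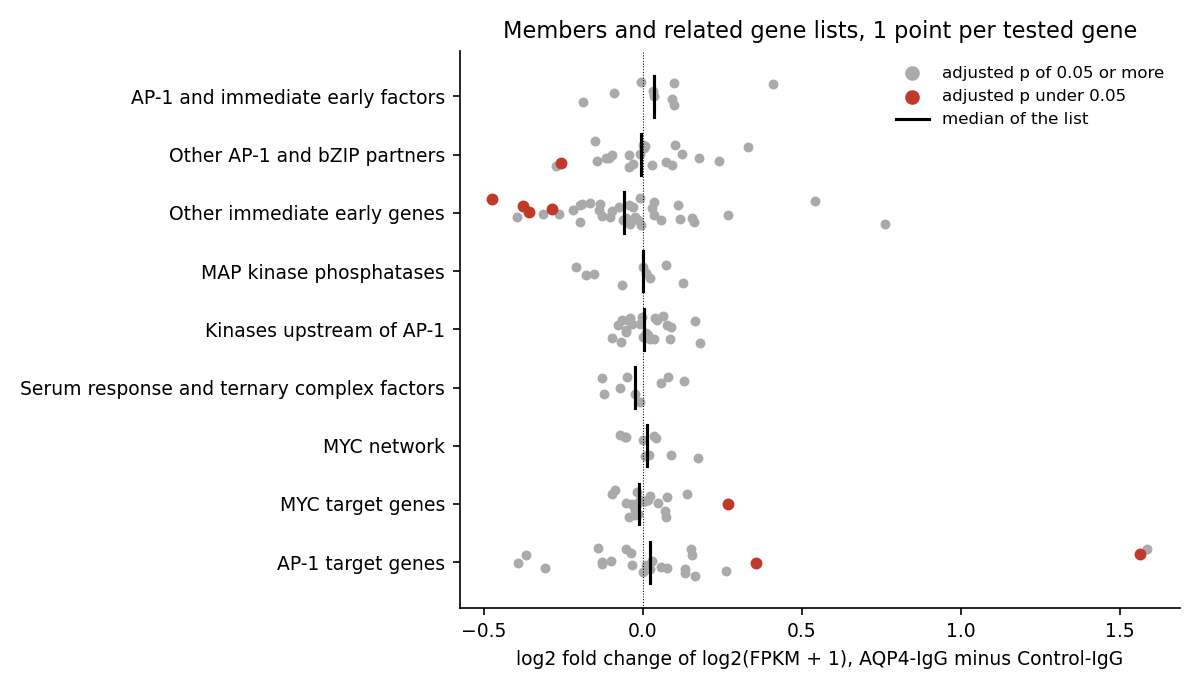
Log2 fold change of log2(FPKM + 1), AQP4-IgG minus Control-IgG, for the tested members and 8 related gene lists, with 1 point per gene and a black line at each median. Red points passed an adjusted p of 0.05 in limma. The members hold 0 red points, the other immediate early genes 4, all below 0, and the AP-1 targets 2, of which Mmp3 lies at 1.56.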

How the data were processed

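The authors deposited 1 table of gene values and their own log2 fold changes, p-values and adjusted p-values. Genome builds GRCm38 and mm10 are named per the submitters' processing notes; the aligner, counter and annotation were not given in the sources used here. The 6 value columns are FPKM as deposited by the authors, a unit inferred from the values: multiplied by exon length in GENCODE M21, 98.99% to 99.14% of values under 200 reads were whole within 0.1 reads, over 13291 genes with equal coordinates. The columns named for a disease abbreviation were taken as AQP4-IgG 1 to 3, since the design has 2 groups. No listed gene had a larger group mean below 0.5 FPKM. Libraries of a group differed beyond sampling noise (chi-square of 3.7 to 6.8 per gene). Limma 3.58.1 in R 4.3.3, with trend and robust variance, was fitted to log2(FPKM + 1) for genes whose mean reached 1 FPKM, two-sided, with Benjamini-Hochberg adjustment over all genes tested and a threshold of 0.05. Scripts were tested on simulated data. With 3 against 3 an exact permutation test cannot reach below 0.1 and was left out. Members and gene lists were chosen with earlier results of these data known. Named were all members and, per list, up to 3 called genes with the smallest p, or else the 1 with the smallest p; others are marked as looked up. Alternatives covered scaling, variance model, filters, pseudocount, block, single libraries and, added after the data were seen, limma-voom on recovered reads and leaving out the libraries numbered 3.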

Additional observations from a re-analysis of the deposited data

How the results depend on the processing

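The count of 0 members called held in all 16 alternative fits but 1. That was limma-voom on recovered reads with the replicate number as a block, which called 1 member higher, Junb (adjusted p = 0.0315, over its alternatives 0.0315 to 0.813). No member was called lower in any fit. The replicate block is not given by the labels: the deviations of same-numbered libraries from their group means correlated at 0.2, 0.009 and 0.202 for numbers 1, 2 and 3 over 12334 genes, and AQP4-IgG 2 correlated best with Control-IgG 1 (0.067). The count over all genes, 258, was 607 with the replicate block, 505 with limma-voom, 1292 with limma-voom and the block, 30 without the libraries numbered 3, and 55 to 390 with 1 library left out. The count of 4 other immediate early genes lower was 2 without the trend, 7 with a mean of at least 10 FPKM, 8 with the block, 8 with limma-voom, 13 with limma-voom and the block, 1 without the libraries numbered 3 and 1 to 4 with 1 library left out. The count of 2 AP-1 targets higher was 1 without the trend, 1 with a mean of at least 10 FPKM, 6 with the block, 4 with limma-voom, 7 with limma-voom and the block, 1 without the libraries numbered 3 and 1 to 4 with 1 library left out. The cause of these shifts was not tested. Signs turned with 1 library left out for Fos (-0.11 to 0.16), Egr1 (-0.43 to 0.18) and Myc (-0.11 to 0.0635). Fosb, with at most 82 reads in a library, could be fitted only without the filter.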
